A study of Mus musculus with 6 samples.

Results

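Integrins and laminins form the main link between a cell and the basement membrane around it. The genes described here are the 35 integrin alpha, integrin beta and laminin chains carried by a single-colour Agilent array, which was hybridised with gastrocnemius RNA of old and young mice. The family was chosen with earlier results of these data known, and its members were taken by symbol. They are every gene whose symbol is Itga, Itgb or Lama, Lamb or Lamc followed by a chain number or letter, 16 integrin alpha, 8 integrin beta and 11 laminin chains. These 35 are among 36717 gene names on the array and are read by 47 of its 55681 probes. Probes that the scanner software called well above background on 3 or more of the 6 arrays were kept, which left 40 probes and 32 chains among 20906 genes tested. The other 3 chains, Itga2, Itgad and Itgb8, were called so on 0 arrays. A further chain in the gene table, Itgae, had no matching probe.

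The gastrocnemius is a calf muscle made largely of fast fibres, and the labels describe the old muscle as atrophied by ageing. The old group was 3 samples from male mice of 25 months and the young group 3 samples from male mice of 13 weeks. Neither group carried a genotype or treatment, and the labels name no strain. All 6 samples were total RNA labelled with Cy3, and the labels do not say that samples of a group came from separate animals, so the p-values reflect only how these samples varied, and part of that variation may be technical.

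An integrin is a pair of an alpha and a beta chain that spans the membrane, binding a matrix protein or another cell outside and the actin cytoskeleton inside. A laminin is a cross-shaped trimer of an alpha, a beta and a gamma chain that assembles into the sheet of a basement membrane. In skeletal muscle the laminin with Lama2, Lamb1 and Lamc1 surrounds each fibre, and the integrin of Itga7 and Itgb1 is one of its receptors, beside dystroglycan. Other integrin chains belong to leukocytes, fibroblasts, vessels, nerve or epithelia, all of which except epithelia a whole muscle contains.

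Promoter sequences are shown for 5 integrin alpha chains, to place the chains on the genome and to give the letters next to their starts. They are 3 chains from the matrix receptors with the lowest p-values in their class, of which Itga8 and Itga10 read lower in old muscle and Itga9 read higher. The other 2 are the leukocyte chains Itgax and Itgam, which are close together on chromosome 7 and had differences of opposite sign. Each sequence runs 5′ to 3′ on the strand of its gene, from 250 bases before the start to 50 after it, and comes from RefSeq with coordinates of GRCm38.p6. Capitals mark matches to 5 short motifs searched on both strands, the core of sites for the myeloid Ets factor PU.1, the GC box, the MCAT motif, the E-box and the TATA motif, whose letters are given with their counts. No match overlapped another.
Itga8 (chr2:12301895-12302194, minus strand): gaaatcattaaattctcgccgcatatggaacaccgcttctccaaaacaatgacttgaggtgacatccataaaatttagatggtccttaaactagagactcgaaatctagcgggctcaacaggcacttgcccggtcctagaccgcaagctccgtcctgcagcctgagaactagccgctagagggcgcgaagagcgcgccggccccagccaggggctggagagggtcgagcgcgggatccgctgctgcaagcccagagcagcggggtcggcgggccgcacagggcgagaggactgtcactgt
Itga10 (chr3:96645334-96645633, plus strand): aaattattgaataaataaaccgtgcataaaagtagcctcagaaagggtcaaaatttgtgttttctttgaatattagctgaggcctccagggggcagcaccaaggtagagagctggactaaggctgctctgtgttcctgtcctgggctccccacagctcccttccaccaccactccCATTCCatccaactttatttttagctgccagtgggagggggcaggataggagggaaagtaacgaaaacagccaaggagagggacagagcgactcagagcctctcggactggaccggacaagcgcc
Itga9 (chr9:118711442-118711741, plus strand): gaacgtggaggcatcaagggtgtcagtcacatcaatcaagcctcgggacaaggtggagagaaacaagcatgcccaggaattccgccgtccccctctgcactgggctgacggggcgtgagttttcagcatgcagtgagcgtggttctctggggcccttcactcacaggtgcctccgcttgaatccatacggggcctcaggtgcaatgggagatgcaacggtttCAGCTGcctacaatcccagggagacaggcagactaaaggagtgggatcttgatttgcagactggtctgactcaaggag
Itgax (chr7:128129300-128129599, plus strand): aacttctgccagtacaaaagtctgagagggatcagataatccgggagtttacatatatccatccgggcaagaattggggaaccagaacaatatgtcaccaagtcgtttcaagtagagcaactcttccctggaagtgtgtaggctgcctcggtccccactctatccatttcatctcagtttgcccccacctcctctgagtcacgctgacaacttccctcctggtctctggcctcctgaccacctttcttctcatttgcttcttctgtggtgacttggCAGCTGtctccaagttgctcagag
Itgam (chr7:128062390-128062689, plus strand): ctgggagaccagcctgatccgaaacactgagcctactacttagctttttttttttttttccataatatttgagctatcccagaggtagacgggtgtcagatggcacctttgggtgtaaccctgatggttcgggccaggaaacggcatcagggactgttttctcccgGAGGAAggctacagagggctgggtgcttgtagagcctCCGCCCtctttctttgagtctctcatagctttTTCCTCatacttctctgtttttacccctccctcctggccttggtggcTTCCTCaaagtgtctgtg

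Itgam held 3 matches to the core of PU.1 sites and 1 GC box, Itga9 and Itgax each held 1 E-box, Itga10 held 1 MCAT and Itga8 held none of the 5 motifs. The table had 25 promoters for 22 of the chains. The core of PU.1 sites, searched as GAGGAA, was in 13 of these 25 (52%), against 28.3% of all 32851 promoters in the table. The GC box, searched as GGGCGG, was in 12 of them (48%), against 35.7% of all promoters. The E-box, searched as CAGCTG, was in 7 promoters of chains (28%), against 16.3% of all promoters. The MCAT motif, searched as CATTCC, was in 3 promoters of chains (12%), against 14.7% of all promoters. The TATA motif, searched as TATAAA, was in 0 promoters of chains, against 13.6% of all promoters. These are counts of letters in windows of 300 bases and do not show that a factor binds there.

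All values below are log2 signals relative to the 75th percentile of the same array, so a difference of 1 is a doubling. They cannot be compared between probes, and the kept probe with the highest average stands for its gene. Differences are old minus young, fitted with limma over all genes, and adjusted p-values are Benjamini-Hochberg values over the 20906 genes. On each array 49.9% to 54.8% of non-control spots were well above background, and none was saturated. All 10 markers of fast muscle fibres were well above background. Their summed linear signal, over the 9 measured on every array, was 5081 to 6760 on old arrays and 6254 to 7503 on young arrays. The lowest p-values in that list were those of the fast troponin Tnni2 (-1.42 ± 0.25; adjusted p = 0.130; old replicate 3 gave no value) and the fast myosin Myh1 (-0.33 ± 0.19; adjusted p = 0.458). Old replicate 1 stood apart: across genes it correlated at 0.969 to 0.982 with the young arrays and at 0.976 with each of the other old arrays, and its negative controls averaged 61.3, against 52.2 and 53.0 on the other old arrays and 51.9 to 55.1 on the young arrays. Old replicates 2 and 3 also lay in another row of the slide than the other 4 arrays. Old replicate 1 was thus the only old array in the row of the young arrays. A difference under a block for slide row is therefore that of old replicate 1 from the young arrays, and not a correction drawn from all arrays. The larger shifts seen without old replicate 1 or under that block are given beside the results. The plot of settings shows both for the chains drawn in it.

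None of the 32 chains passed an adjusted p of 0.05, against 0.254% of all genes tested (0.196% higher and 0.0574% lower in old muscle). The lowest adjusted p among them was 0.149, for Itga8. At an unadjusted p under 0.05 there were 10 chains, 3 higher and 7 lower in old muscle, where 14.5% of all genes passed (6.07% higher and 8.39% lower). The old and young arrays did not overlap for 10 chains, 2 higher (Itga9 among them) and 8 lower (Lamc1, Lamb1, Itga8, Itga10, Itga11, Itgb5, Itga6 and Lama3) in old muscle. Over all genes 21.8% did not overlap, 7.92% higher and 13.9% lower. The difference was negative for 21 of the 32 chains and for 56.9% of all genes, with a median of -0.19 over the chains and -0.06 over all genes. With the slide row as a block, which sets old replicate 1 alone against the young arrays, the median of the chains was 0.0019. Under it 16 of the 32 were negative. In RNA of a whole muscle, fewer cells of a type and less RNA per cell cannot be told apart.

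**Figure D1:**
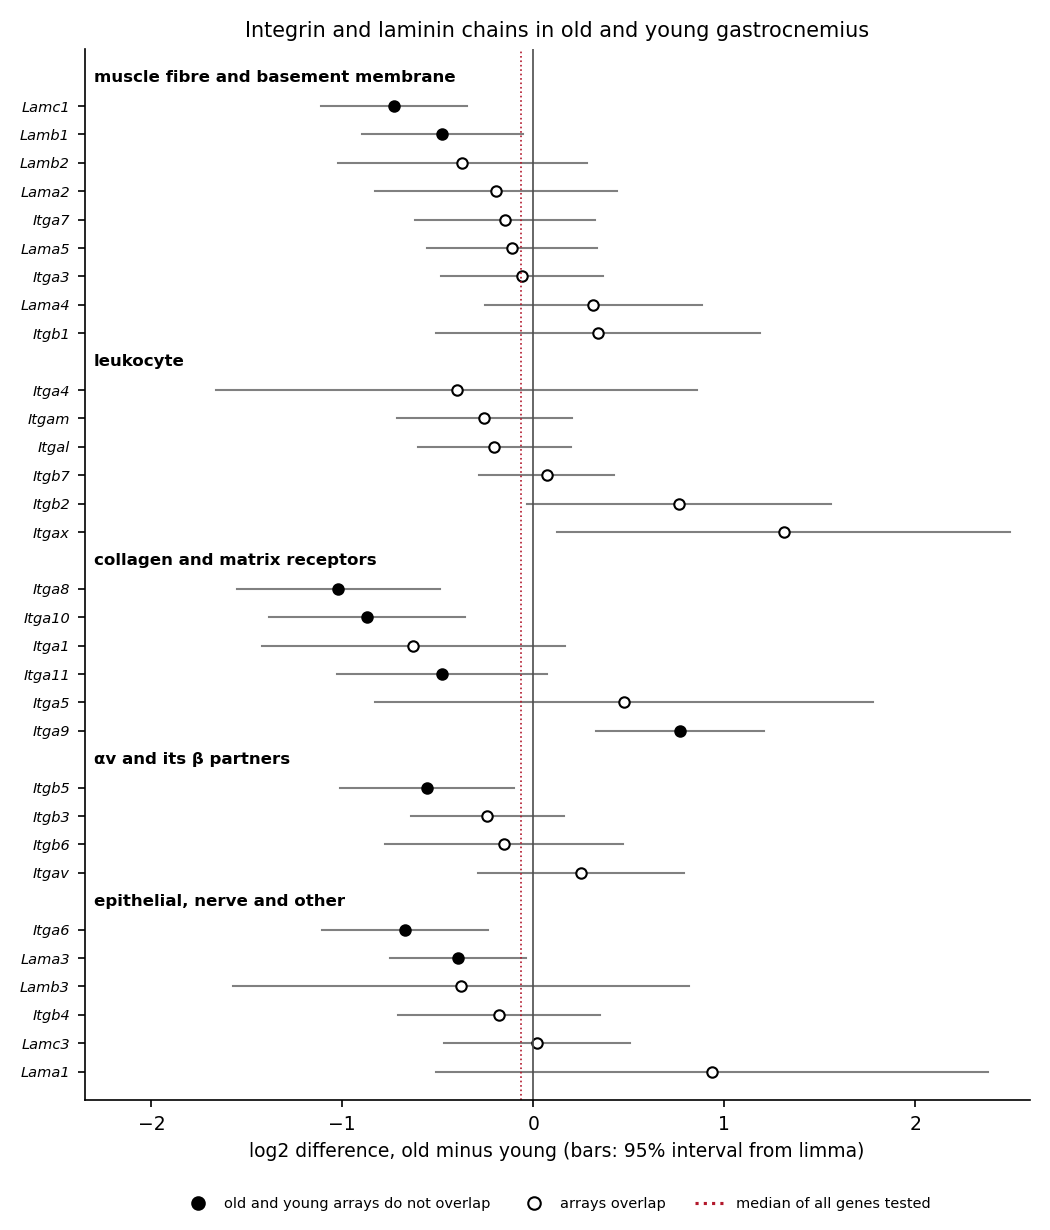
Log2 difference, old minus young, of 31 chains with a kept probe (x axis), grouped by class (y axis). Points are limma estimates, bars their 95% intervals, filled points chains whose 3 old and 3 young arrays do not overlap, and the dotted line the median of all genes tested (-0.06). The filled points are 9 chains, 1 to the right of 0 (Itga9 at 0.77) and 8 to the left, the farthest Itga8 at -1.02.

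The chains of the muscle fibre and its basement membrane were 9, all tested. Their median difference was -0.15 (0.12 with the slide row as a block), 7 were negative, and Lamc1 and Lamb1 were the 2 whose groups did not overlap (21.8% of all genes). Lamc1 encodes the gamma chain shared by most laminins of muscle. It read 4.55, 4.23 and 4.51 on the old arrays, against 5.13, 5.21 and 5.15 on the young arrays. Every old array was below every young array and the young values lay within 0.1 of each other, with a difference of -0.73 ± 0.16 (SE; 95% interval -1.11 to -0.35; adjusted p = 0.150). Leaving out any 1 array kept the Lamc1 difference between -0.79 and -0.63. Lamb1 encodes the beta chain of the laminin along the length of the fibre, and read 3.25, 3.35 and 3.04 on the old arrays, against 3.66, 3.51 and 3.90 on the young arrays. Here too the old arrays were the 3 lowest, by less, with a difference of -0.48 ± 0.18 (95% interval -0.90 to -0.05; adjusted p = 0.303).

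Lamb2, which takes the place of Lamb1 in the basement membrane of the neuromuscular junction, read 4.15, 3.34 and 3.15 on the old arrays, against 3.84, 3.90 and 4.0 on the young arrays. Old replicate 1 was the highest of all 6 and the other old arrays were the 2 lowest. The difference was -0.37 ± 0.27 (95% interval -1.02 to 0.28; adjusted p = 0.562) with all arrays. Without old replicate 1 it was -0.67 (adjusted p = 0.128), and with the slide row as a block it turned positive, at 0.23.

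Among the alpha chains of muscle laminins, Lama2, whose loss causes a congenital muscular dystrophy, read 4.45, 3.61 and 3.93 on the old arrays, against 4.33, 4.39 and 3.86 on the young arrays. The groups overlapped across nearly their whole range, and the difference of -0.20 ± 0.27 had a 95% interval from -0.83 to 0.44. It was -0.42 without old replicate 1 and turned positive, to 0.26, under a block for slide row. Lama4, found around vessels and at the neuromuscular junction, read 1.55, 1.30 and 1.37 on the old arrays, against 1.54, 1.03 and 0.70 on the young arrays. Young replicate 3 was the lowest, and the Lama4 difference was 0.32 ± 0.24 (95% interval -0.25 to 0.89). Lama5, also a chain of vessels and the junction, read 3.84, 3.57 and 3.42 on the old arrays, against 3.73, 3.90 and 3.53 on the young arrays. Its groups overlapped, with a difference of -0.11 ± 0.19 (95% interval -0.55 to 0.34), which was -0.22 without old replicate 1 and 0.12 under a block for slide row.

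The integrin side of the muscle class differed less between the ages than the spread between arrays. Itga7, the laminin-binding alpha chain of muscle fibres, read 6.33, 6.14 and 6.35 on the old arrays, against 6.14, 6.40 and 6.73 on the young arrays. Young replicate 3 was the highest, and the difference was -0.15 ± 0.20 (95% interval -0.62 to 0.32). Itgb1, the beta partner of Itga7 and of most matrix-binding alpha chains, read 1.59, 0.89 and 2.31 on the old arrays, against 1.45, 1.32 and 1.0 on the young arrays. The old arrays held both the lowest and the highest value. The Itgb1 difference was 0.34 ± 0.36 (95% interval -0.51 to 1.19), and -0.01 without old replicate 3. Itga3, a laminin receptor of epithelia that is also found at motor nerve endings, read -1.76, -1.87 and -1.40 on the old arrays, against -1.60, -1.56 and -1.69 on the young arrays. The young values fell inside the old range, with a difference of -0.06 ± 0.18 (95% interval -0.49 to 0.37). Adjusted p-values of these 6 chains, from Lama2 to Itga3, were 0.571 to 0.893.

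**Figure D2:**
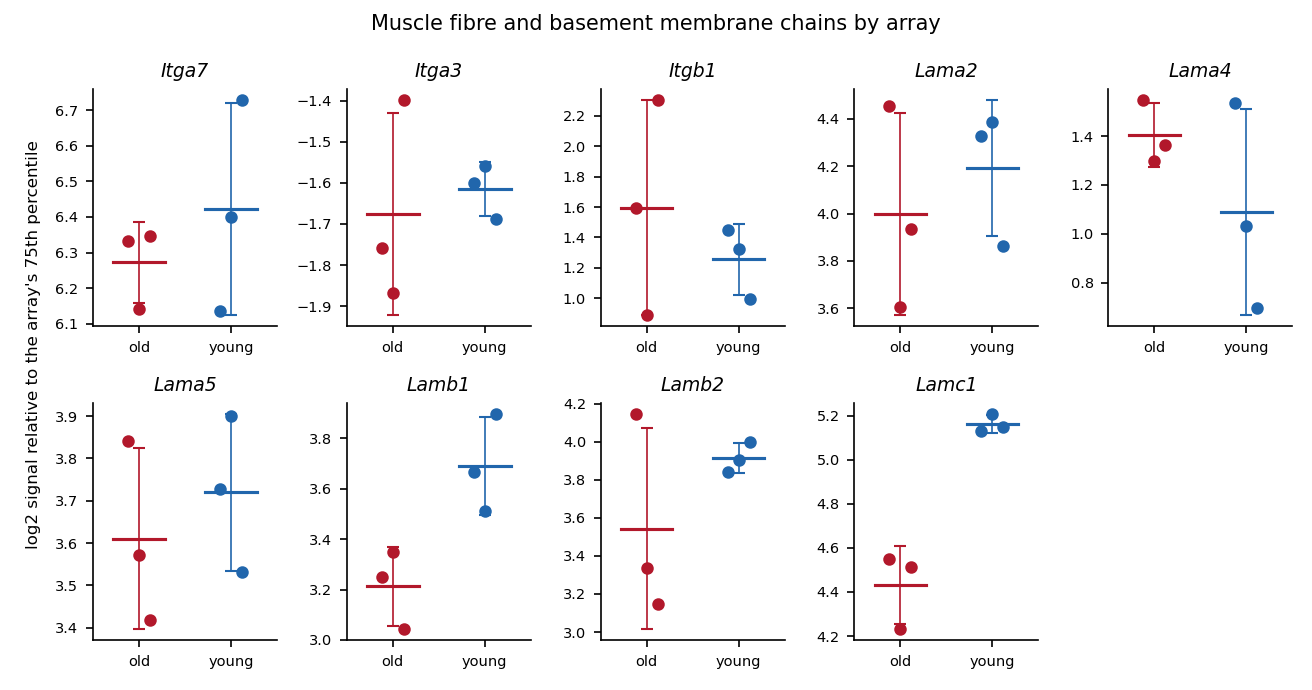
Log2 signal relative to the array's 75th percentile (y axis, a different range in each panel) of the 9 chains of muscle fibre and muscle basement membrane on the 3 old and 3 young arrays. Each point is an array, the bar the mean and the whiskers ± SD. The old and young points of Lamc1 and Lamb1 do not overlap, and those of the other 7 chains do.

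Of the 7 leukocyte chains 6 were tested, 3 with a positive and 3 with a negative difference and a median of -0.07, which was 0.10 without old replicate 1. The groups overlapped for all 6. Itgax, an alpha chain of dendritic cells and of some macrophages, read -2.22, -3.05 and -2.37 on the old arrays, against -3.04, -3.58 and -4.96 on the young arrays. It was well above background on 3 old arrays and on 1 young array. The old arrays held the 2 highest values, old replicate 2 was level with young replicate 1, and young replicate 3 was far below the rest. The difference was 1.31 ± 0.50 (95% interval 0.12 to 2.50; unadjusted p = 0.0349; adjusted p = 0.314), 0.76 without young replicate 3, and 0.30 with normexp background correction. With 2 of the 3 young values not well above background, its size is uncertain. Itgb2, the beta chain that Itgax, Itgam, Itgal and Itgad share, read -0.48, -1.23 and -0.45 on the old arrays, against -1.11, -1.24 and -2.09 on the young arrays. Old replicates 1 and 3 were the highest, old replicate 2 lay among the young arrays and young replicate 3 was again the lowest. The Itgb2 difference was 0.76 ± 0.33 (95% interval -0.04 to 1.56; adjusted p = 0.365), 0.46 without young replicate 3, and 0.34 with normexp.

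Itgam, the alpha chain of macrophages, monocytes and neutrophils, read 4.17, 4.55 and 4.25 on the old arrays, against 4.32, 4.70 and 4.71 on the young arrays. Its groups overlapped, with old replicates 1 and 3 the lowest, and the difference was -0.26 ± 0.19 (95% interval -0.71 to 0.20; adjusted p = 0.567). The other Itgam probes gave -0.13 and 0.07. They read far lower, at -2.67 to -1.65 and at -4.34 to -3.31 over all arrays, and which probe reads Itgam best was not tested. Itgal, the alpha chain of lymphocytes that binds Icam proteins, read -2.23, -2.49 and -2.19 on the old arrays, against -2.22, -1.95 and -2.12 on the young arrays. Old replicate 2 was the lowest and the remaining values were close together, with a difference of -0.20 ± 0.17 (95% interval -0.61 to 0.20; adjusted p = 0.602).

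Itga4, which pairs with Itgb1 or Itgb7 and binds Vcam1, read -0.46, 1.30 and 1.25 on the old arrays, against 1.21, 0.47 and 1.62 on the young arrays. Old replicate 1 alone was low among the old arrays. The Itga4 difference was -0.40 ± 0.53 (95% interval -1.66 to 0.86; adjusted p = 0.753) with all arrays, 0.18 without old replicate 1, and -1.55 with the slide row as a block, which sets old replicate 1 against the young arrays of its row. Itgb7, the beta chain of lymphocytes that home to the gut, read -1.14, -1.24 and -1.34 on the old arrays, against -1.38, -1.30 and -1.25 on the young arrays. All 6 values lay close together, with a difference of 0.07 ± 0.15 (95% interval -0.28 to 0.42; adjusted p = 0.850).

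Most macrophage markers tested had a difference of the same sign as Itgax and Itgb2. Of 12 macrophage markers 11 were tested, 9 with a positive difference and 8 with old arrays above all young arrays (7.92% of all genes), with a median of 0.64. Their summed linear signal was 31.7 to 38.6 on old arrays and 26.1 to 27.9 on young arrays. Among them Fcgr1, a receptor for IgG, was well above background on 3 old arrays and 0 young arrays. It passed the filter through its old arrays alone, which fixed its direction, so its p-value is not given. Its signal was at least 2.14-fold higher in old muscle, and it is among the 8 markers without overlap. C1qb, a chain of complement C1q, differed by 0.89 ± 0.17 (adjusted p = 0.125), and Cd163 was well above background on 0 arrays. Of 10 neutrophil markers 6 were tested, 4 positive and 2 negative. Their median of 1.75 lies in the gap between Retnlg and Csf3r and is near neither. Retnlg was well above background on 3 old arrays and 0 young arrays, so it passed the filter through its old arrays alone. S100a8 and S100a9, the subunits of calprotectin, rose in old muscle, by 4.80 ± 0.31 and 4.70 ± 0.30 (adjusted p = 0.00603 for both), calls that were lost with the replicate block and without old replicate 3 (adjusted p up to 0.0798). Among the others, named after their values were seen, Camp was at -0.40 ± 0.15 and Elane at -0.31 ± 0.18, each with old arrays below all young arrays, and Csf3r, a cytokine receptor, at 0.05 ± 0.16, while Ngp and Mpo were well above background on 0 arrays. The neutrophil sum of 169 to 199 on old arrays and 157 to 161 on young arrays came mostly from Csf3r. Without it, an omission chosen after seeing the data, the other 5 summed to 17.0 to 25.2 on old arrays and 1.40 to 1.95 on young arrays. On old arrays that sum came mostly from S100a9 and S100a8, so it repeats their difference. The lymphocyte list had 5 of 11 genes tested, a median of -0.18 and sums of 2.80 to 3.30 on old arrays and 2.92 to 3.42 on young arrays, with Cd3g, Cd8a and Ms4a1 well above background on 0 arrays. Its lowest p was that of Jchain, the joining chain of plasma cells (1.41 ± 0.49; adjusted p = 0.285). The part of these cells in the values of the leukocyte chains was not tested.

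**Figure D3:**
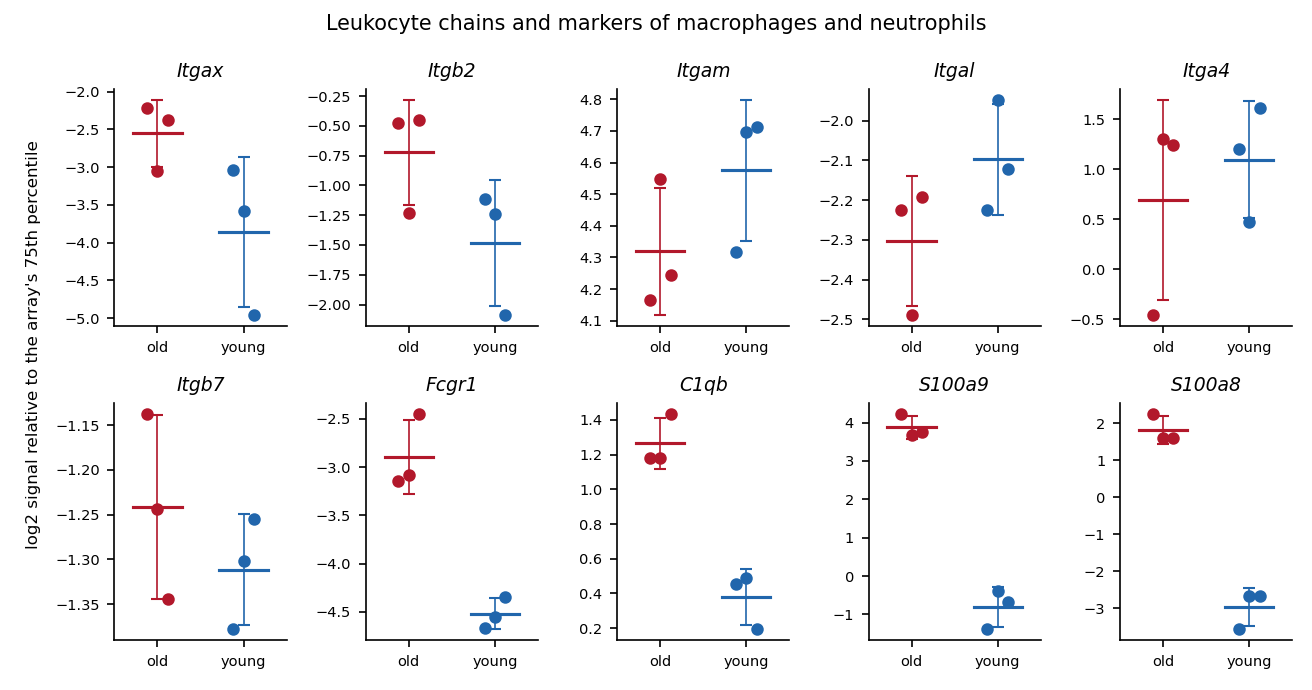
Log2 signal relative to the array's 75th percentile (y axis, a different range in each panel) of the 6 leukocyte chains tested and of 2 macrophage and 2 neutrophil markers on the 3 old and 3 young arrays. Each point is an array, the bar the mean and the whiskers ± SD, and the young values of Fcgr1 were not well above background. Old and young points overlap in all 6 chain panels and are separate in the 4 marker panels.

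Collagen receptors and the alpha chains that bind other matrix proteins were 7, of which 6 were tested. Their median difference was -0.55, 4 of the 6 were negative, and the groups did not overlap for 4 (21.8% of all genes). The median was -0.093 under a block for slide row and -0.78 without old replicate 1. Itga8, the receptor of nephronectin on smooth muscle and mesenchymal cells, read -1.63, -1.88 and -2.07 on the old arrays, against -1.11, -0.94 and -0.48 on the young arrays. The 2 ages were well separated. The Itga8 difference was -1.02 ± 0.22 (95% interval -1.55 to -0.49; adjusted p = 0.149), a level 2.03-fold lower in old muscle, and it stayed between -1.15 and -0.84 without any 1 array. Itga9, which binds tenascin and osteopontin and serves lymphatic vessels, read 0.48, 0.29 and 0.71 on the old arrays, against -0.38, -0.38 and -0.07 on the young arrays. Every old array was above every young array, with a difference of 0.77 ± 0.19 (95% interval 0.33 to 1.21; adjusted p = 0.167). Itga9 was thus the chain of this class that differed most clearly in the direction opposite to Itga8.

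Itga10, a collagen receptor best known from cartilage, read -1.16, -1.15 and -1.66 on the old arrays, against -0.54, -0.19 and -0.62 on the young arrays. All old arrays were below all young arrays, with a difference of -0.87 ± 0.22 (95% interval -1.39 to -0.36; adjusted p = 0.176), and its other probe gave -0.80. Itga11, the receptor of fibroblasts for fibrillar collagen, read 2.67, 2.41 and 1.86 on the old arrays, against 2.71, 2.80 and 2.86 on the young arrays. The separation was narrow, since old replicate 1 lay just under young replicate 1, and the difference was -0.48 ± 0.23 (95% interval -1.03 to 0.07; adjusted p = 0.402). Without old replicate 1 it was -0.66 and with the slide row as a block -0.12. The remaining tested chains were Itga1, a receptor for basement membrane collagen, at -0.63 ± 0.33 with the same value from both probes, and Itga5, the fibronectin receptor, at 0.48 ± 0.55. Their groups overlapped with the probes that stood for them. With the other Itga1 probe every old array was below every young array, narrowly, at -1.42 for old replicate 2 and -1.36 for young replicate 1. Itga1 was at -0.91 without old replicate 1 and at -0.062 under the block for slide row, and Itga5 was at -0.037 without young replicate 3.

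Markers of the cells that commonly carry these receptors were read in the same samples. The fibroblast list, with 9 of 9 genes tested, had sums of 229 to 360 on old arrays and 468 to 540 on young arrays and a median of -0.22. On each array Dcn, named after its values were seen, gave the largest part of that sum (-0.85 ± 0.34; adjusted p = 0.330). In this list 8 genes were negative and 1 positive, and for 4 the old arrays were all below the young arrays (13.9% of all genes). The lowest p-values of the fibroblast list were those of the collagen chains Col1a2 (-1.54 ± 0.36; adjusted p = 0.162) and Col1a1 (-1.56 ± 0.56; adjusted p = 0.291). The smooth muscle and pericyte list, 8 of 8 tested, had sums of 58.1 to 64.7 on old arrays and 75.9 to 84.7 on young arrays and a median of -0.49, led by Notch3 (-0.64 ± 0.25) and Myh11 (-0.52 ± 0.21). The tendon and myotendinous junction list, 8 of 8 tested, had a median of -1.43, with 7 negative and 1 positive. In it Kera (-3.18 ± 0.33) and Col22a1 (-1.44 ± 0.15) fell in old muscle (adjusted p = 0.0263 for both). Both stayed negative under all 16 alternatives, but the call was lost under 7 of them for Kera and 9 for Col22a1, with adjusted p up to 0.127 and 0.130. These include a block for slide row (0.0770 and 0.0888), and leaving out young replicate 1 or 2 or old replicate 2 or 3, and for Col22a1 also young replicate 3. The positive member, Scx, named after its values were seen, was at 1.35 ± 0.40 (adjusted p = 0.229), with every old array above every young array. The sums of the tendon list were 51.9 to 89.0 on old arrays and 85.2 to 91.4 on young arrays. On each old array Scx gave the largest part of that sum. Every marker of these 3 lists passed the filter. In the tendon list, though, Mkx was well above background on 1 old array and Tnmd on 2, each with 3 young arrays. The part of these cells in the values of the matrix receptors was not tested.

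The alpha v chain and its beta partners bind vitronectin and release latent TGF-beta. Of these 5 chains 4 were tested, with 3 negative and a median of -0.20, which was -0.11 under a block for slide row and -0.073 without young replicate 3. Itgb5, the vitronectin partner, read 5.36, 5.25 and 4.87 on the old arrays, against 5.59, 5.89 and 5.67 on the young arrays. Each old array was lower than each young array, with a difference of -0.56 ± 0.19 (95% interval -1.01 to -0.10; adjusted p = 0.283). Itgb3, the partner found on platelets and vessels, read -0.81, -0.59 and -0.49 on the old arrays, against -0.44, -0.49 and -0.23 on the young arrays. The old arrays tended to the low end, but old replicate 3 and young replicate 2 were level, and the difference was -0.24 ± 0.17 (95% interval -0.64 to 0.16; adjusted p = 0.541). Itgav itself read -1.12, -1.58 and -1.11 on the old arrays, against -1.82, -1.21 and -1.53 on the young arrays. Its groups overlapped, with a difference of 0.25 ± 0.23 (adjusted p = 0.639), and its other probe gave -0.02. Itgb6, an epithelial partner, read 1.16, 0.45 and 0.99 on the old arrays, against 0.69, 1.0 and 1.37 on the young arrays, an overlapping spread with a difference of -0.15 ± 0.26 (adjusted p = 0.810).

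The class of epithelial, nerve and other laminin-system chains had 7 members, all tested, with a median of -0.18, 4 negative, and 3 whose groups did not overlap (21.8% of all genes). The median turned positive under a block for slide row, at 0.066, and lay between -0.34 and -0.078 with single arrays left out, the smallest without young replicate 2. Itga6, a laminin receptor of epithelia and endothelium that pairs with Itgb1 or Itgb4, read 3.44, 3.27 and 3.11 on the old arrays, against 3.75, 4.17 and 3.93 on the young arrays. The old arrays were the 3 lowest, with a difference of -0.67 ± 0.18 (95% interval -1.11 to -0.24; adjusted p = 0.202). Lama3, an alpha chain of epithelial laminin, read -1.74, -1.68 and -1.82 on the old arrays, against -1.25, -1.44 and -1.37 on the young arrays. Here too each old array was below each young array, and the Lama3 difference was -0.39 ± 0.15 (95% interval -0.75 to -0.04; adjusted p = 0.312). Lamb3, a beta chain of epithelial laminin, had overlapping groups and a difference of -0.38 ± 0.50 (adjusted p = 0.756), which was -0.86 without old replicate 1 and 0.60 with the slide row as a block.

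Lama1, an alpha chain known mainly from the embryo, read -3.33, -3.23 and -3.37 on the old arrays, against -4.10, -2.98 and -5.65 on the young arrays. It was well above background on 2 old arrays and 1 young array only, the young values spread widely around the old ones, and the difference was 0.94 ± 0.61 (95% interval -0.51 to 2.38; adjusted p = 0.513), and 0.13 with normexp. Itgb4, the partner of Itga6 in epithelia and Schwann cells, and Lamc3 had overlapping groups and differences of -0.18 ± 0.22 and 0.02 ± 0.21 (adjusted p = 0.735 and 0.969). Endothelial markers, with 10 of 10 tested, had a median of -0.34 and sums of 28.1 to 40.6 on old arrays and 41.0 to 47.4 on young arrays. Of them 7 were negative and 3 positive (Pecam1, Tek and Emcn), and for 3 the old arrays were all below the young arrays (13.9% of all genes). The lowest p-values were those of Erg (-0.78 ± 0.21; adjusted p = 0.196) and Cdh5 (-0.79 ± 0.22; adjusted p = 0.215). Schwann cell markers, also 10 of 10 tested, had a median of -0.67 and sums of 25.9 to 43.1 on old arrays and 26.7 to 46.2 on young arrays. Prx, a myelin protein linked to dystroglycan, fell in old muscle (-1.29 ± 0.16; adjusted p = 0.0429), a call lost under 9 of the 16 alternatives, a block for slide row (adjusted p = 0.149) and the omission of any array but old replicate 1 among them. Mbp, myelin basic protein, was at 1.33 ± 0.18 (adjusted p = 0.0526), but its other probes gave -0.026 and 1.12. The part of these cells in the values of Itga6, Itgb4 and the other chains of the class was not tested.

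**Figure D4:**
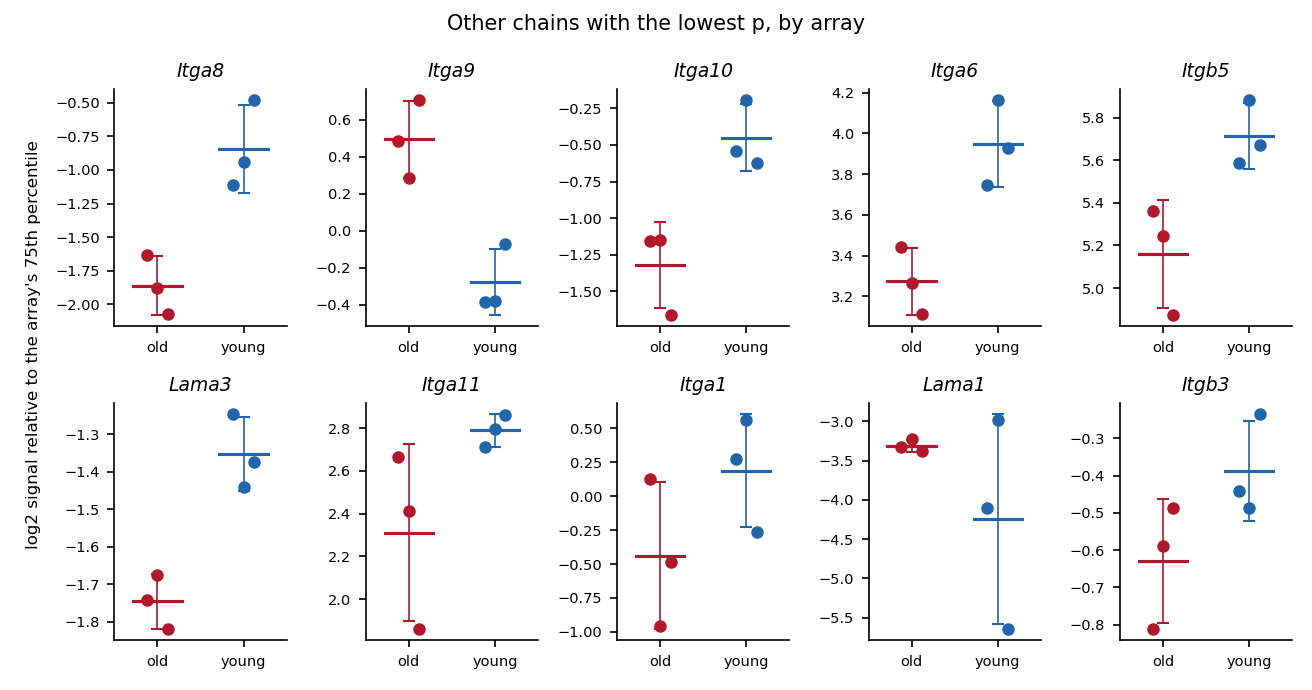
Log2 signal relative to the array's 75th percentile (y axis, a different range in each panel) of 10 chains with low p-values from the collagen and matrix receptor, alpha v and epithelial, nerve and other classes on the 3 old and 3 young arrays. Each point is an array, the bar the mean and the whiskers ± SD. Old points lie above all young points for Itga9, and below all young points for Itga8, Itga10, Itga11, Itgb5, Itga6 and Lama3.

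Genes that work with the chains inside and outside the cell are given from lists chosen by function. Among 22 adaptors and actin linkers, 18 were tested and 0 passed an adjusted p of 0.05. Their median difference was -0.03, with 8 positive and 10 negative. Lims2, the PINCH adaptor of the complex with integrin-linked kinase, read 3.41, 3.59 and 2.94 on the old arrays, against 4.02, 4.70 and 4.33 on the young arrays. No old array reached a young one, with a difference of -1.04 ± 0.25 (adjusted p = 0.174). Itgb1bp2, known as melusin, a muscle protein that binds the tail of Itgb1, read 4.81, 4.80 and 5.46 on the old arrays, against 4.90, 4.23 and 2.72 on the young arrays. Young replicate 3 was far below the others, and the difference was 1.07 ± 0.54 (adjusted p = 0.418). Rsu1, which binds the PINCH complex, was at -0.25 ± 0.15 (adjusted p = 0.482) and Tln2, the talin abundant in muscle, at -0.27 ± 0.19 (adjusted p = 0.541), while another Tln2 probe gave 0.62.

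Of 19 other basement membrane and laminin-binding proteins 18 were tested, 4 positive and 14 negative, with a median of -0.13 and 0 past the threshold. Agrn, the laminin-binding organiser of the neuromuscular junction, read 1.60, 2.0 and 1.05 on the old arrays, against 2.57, 2.58 and 2.75 on the young arrays. Nid1, nidogen, which joins the laminin gamma chain of Lamc1 to type IV collagen, read 3.18, 3.20 and 2.92 on the old arrays, against 3.80, 3.67 and 3.98 on the young arrays. Both had every old array under every young array, with differences of -1.08 ± 0.26 for Agrn and -0.71 ± 0.17 for Nid1 (adjusted p = 0.163 and 0.166). The other Nid1 probes gave -0.48 and -0.52. The type IV collagen chains Col4a5 and Col4a4 were at -0.65 ± 0.22 and -0.27 ± 0.16 (adjusted p = 0.275 and 0.473).

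Of 20 ligands of other integrins 14 were tested, 3 positive and 11 negative, with a median of -0.53. None passed the threshold, and for 8 the old arrays were all below the young arrays (13.9% of all genes). Col1a2, a chain of the type I collagen that Itga11 binds, read 3.97, 4.88 and 5.46 on the old arrays, against 6.20, 6.30 and 6.42 on the young arrays. The old values were spread and old replicate 1 was the lowest. Thbs4, a thrombospondin of tendon and muscle, was at -0.89 ± 0.24 (adjusted p = 0.205), Icam2, an endothelial ligand of Itgal with Itgb2, at -0.81 ± 0.23 (adjusted p = 0.214) and Vtn, the vitronectin bound through Itgb5, at -0.61 ± 0.20 (adjusted p = 0.264). Npnt, nephronectin, the ligand of Itga8, is named after its values were seen: its difference was 0.79 ± 0.30 (adjusted p = 0.313), and 0.23 with its other kept probe. Satellite cells, which also carry Itga7 and Itgb1, had 5 of 6 markers tested and a median of -0.02. The lowest p-values were those of Chodl (-1.27 ± 0.38; adjusted p = 0.229) and Calcr (-1.19 ± 0.45; adjusted p = 0.306). Calcr was well above background on 1 old array and 3 young arrays. It would have passed the filter through its young arrays alone, so the size of its difference is uncertain. Together the companion and marker lists held 150 genes, 127 of them tested. The threshold was passed by 5, namely S100a8, S100a9, Kera, Col22a1 and Prx, against 0.254% of all genes tested. The lists were chosen with earlier results of these data known, so this count is no test of them.

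**Figure D5:**
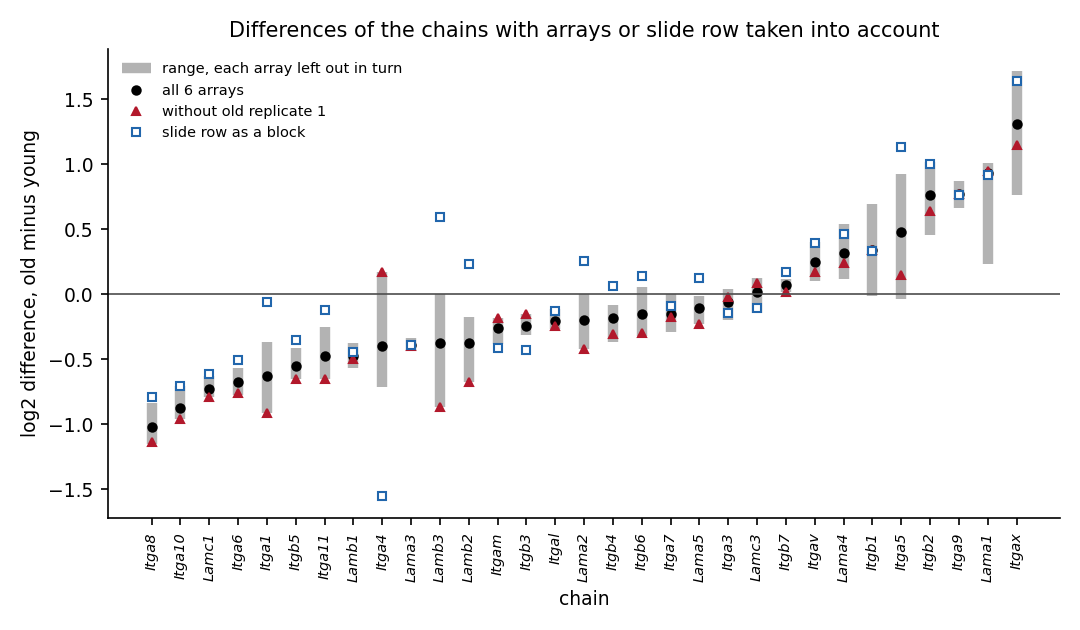
Log2 difference, old minus young (y axis), of 31 chains (x axis, ordered by the difference with all 6 arrays). Grey bars span the values with each array left out in turn, circles use all 6 arrays, triangles leave out old replicate 1 and squares take the slide row as a block. The chains at both ends, such as Itga8 and Itgax, keep their sign under all of these, while Itga4, at -0.40 with all arrays, is at 0.18 without old replicate 1.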

How the data were processed

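The unit of the deposited scanner files is the intensity of a spot, from which Agilent Feature Extraction 11.0.1.1 (protocol GE1_1100_Jul11) had removed background and spatial trend, per the file headers, whereas the submitters' processing notes name version 9.5. The authors' deposited value table holds an intensity that equals, within 1, the processed signal divided by its 75th percentile over all spots, times 100, for all 62976 values of each array. Its scale is therefore linear, uncentred and in the direction of the signal. Its medians were 9, 7 and 6 for old replicates 1 to 3 and 6, 7 and 7 for young replicates 1 to 3. It served as an alternative, as log2 of the value plus 1.

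Control spots and outlier spots (161 to 212 per array) were dropped, spots of a probe were averaged, and each array's 75th percentile over non-control probes was subtracted. Of 55681 probes 28331 matched a RefSeq symbol (GRCm38.p6) by accession, and 27350 kept the name in the file. The two-sided test was limma's moderated one (version 3.58.1, R 4.3.3), tested on simulated data. Summaries used Python 3.11.15 with pandas 2.3.3 and numpy 2.4.6, and plots matplotlib 3.10.9. Exact permutation of 3 against 3 arrays gives no p below 0.1, so none is reported. All arrays shared 1 slide and 1 scan. Precision is limited by the number of arrays.

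The chains, their classes and all lists were chosen with earlier results of these data known. Values on every array are given for the muscle and leukocyte chains and for the 4 chains with the lowest p in each other class. The 4 lowest p-values are named in each companion list, the 2 lowest in each marker list, and members past the threshold in all of them. The values of 1 chain and 1 marker gene that the rule would name are not reported here, though both stay in all counts and medians. A few further genes are named where a count or a function called for them. Alternatives tried were normalization by quantiles, centring on the median, normexp (offset 50) on the median signal in place of the planned mean signal, the values of the authors, no filter or a filter on all 6 arrays for dim probes, averaging a gene's probes, eBayes with trend and robust settings, a block for slide row or for replicate number, and each array left out.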

Additional observations from a re-analysis of the deposited data

How the results depend on the processing

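Under all 16 alternatives 0 chains passed the threshold, and the lowest adjusted p of any chain was 0.0965 (Itga8, median centring). Of 506 chain values under these alternatives 485 kept their sign and 21 did not, and 19 of the 32 chains kept it throughout. Genes past the threshold, 53 in all, numbered 8 with no filter, 35 when every array had to be well above background and 1 to 186 with an array left out, 186 without old replicate 1. Median centring gave 42, of which 26 were higher in old muscle, and normexp gave 61, of which 38 were higher, against 41 of 53. A block for slide row gave 41, of which 22 were higher, and the 186 genes without old replicate 1 were 91 higher and 95 lower. Median centring moved the median of all genes to -0.21. With the replicate number as a block 5 genes passed. The numbers did not pair the samples: deviations of same-numbered arrays correlated at -0.06, -0.27 and 0.03, and no old array matched its own number best. Companion and marker genes past the threshold, 5 in all, were 2 without a filter, 2 under the block for slide row, 0 with the replicate block and 0 to 6 with an array left out. S100a8 and S100a9 passed under 14 of the 16 alternatives, Kera under 9, and Col22a1 and Prx under 7 each. The slide row as a block moved the class medians to 0.12 (muscle), 0.023 (leukocyte), -0.093 (collagen and matrix) and 0.066 (epithelial and nerve). Differences under this block rest on old replicate 1 as the only old array compared with young arrays. The leukocyte median was also -0.21 with median centring, 0.032 with no filter, -0.20 with the filter on all arrays and -0.12 to 0.10 with an array left out, 0.10 without old replicate 1. With the slide row as a block the sign turned for Itgb4 (0.066), Itgb6 (0.14), Lama2 (0.26), Lama5 (0.12), Lamb2 (0.23), Lamb3 (0.60) and Lamc3 (-0.10). Lamc3 was also -0.019 with quantile normalization, -0.13 with median centring and -0.16 with normexp, and Itgb7 was -0.077 with median centring. With an array left out in turn, chains that changed sign ranged from -0.20 to 0.037 (Itga3), -0.72 to 0.18 (Itga4), -0.037 to 0.93 (Itga5), -0.29 to 0.0053 (Itga7), -0.015 to 0.69 (Itgb1), -0.32 to 0.055 (Itgb6), -0.86 to 0.0059 (Lamb3) and -0.14 to 0.12 (Lamc3). The cause of these shifts was not tested. Normexp reduced the dim chains Itgax and Lama1 to 0.30 and 0.13 and Itgb2 to 0.34. Signal over background limits Itgax, Itga5 and Lama1, which were not well above background on every array.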
